A study of Mus musculus with 4 samples.

Results

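Mouse embryonic stem cells without Prdm14 that carried both PRDM14 and CBFA2T of the sea urchin were compared with the same kind of cells carrying mouse PRDM14. The comparison rests on 2 of the 4 arrays of the series, chosen by their titles, and was made over the 23521 of 41345 probe sets that the platform annotation pairs with 1 gene symbol. Total RNA was hybridised to GeneAtlas arrays, all 4 on strip 2, with 1 array for each group. Every group lacked Prdm14 and was kept in 2i and LIF medium over STO feeder fibroblasts, and the other 2 groups carried an empty vector or sea urchin PRDM14 alone. The sources used here do not give the promoter of the introduced genes or whether each group is 1 clone. Below, "the pair" stands for sea urchin PRDM14 with CBFA2T, "the mouse array" for mouse PRDM14 and "urchin alone" for sea urchin PRDM14 without CBFA2T. The question is which genes still separate cells with the pair from cells with mouse PRDM14.

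PRDM14 is a zinc finger protein of naive pluripotent cells and primordial germ cells that holds back FGF receptor and de novo DNA methylation genes. It binds DNA and works through co-repressors of the CBFA2T family, of which mouse cells have their own member, Cbfa2t2. Embryonic stem cell cultures hold a few cells that briefly switch on genes of the 2-cell embryo, among them the Zscan4 family, and return to the usual state.

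The values are log2 values made with RMA, so a difference of 1 is 2-fold. The number of arrays limits the precision, and with 1 array per group no difference below has a replicate error or a test. Array medians lay between 4.54 and 4.55, and the 2 arrays correlated at Pearson's r of 0.987 across all probe sets. The probe set of Prdm14 read 5.53 with the pair and 5.57 on the mouse array, against 5.71 with the empty vector and 5.77 with urchin alone, so it did not separate the labelled groups. Where its probes lie relative to the deleted and introduced parts was not known here, and each group name below means the array labelled with it. All 10 stem cell markers passed the filter described below. Their summed log2 level was 10.66 with the pair, 10.73 on the mouse array, 10.69 with the empty vector and 10.73 with urchin alone. The median of their differences, pair minus mouse, was -0.12. Nanog, the brightest of them, lay the other way, at 9.28 with the pair and 8.99 on the mouse array. Of 12 markers of the STO feeder fibroblasts 8 passed the filter. The summed level of all 12 on the log2 scale was 9.46 with the pair, 9.65 on the mouse array, 9.58 with the empty vector and 9.59 with urchin alone. The median of the 12 differences, pair minus mouse, lay the other way, at 0.03. Among these 12, Dcn and Lum were dim on all 4 arrays, at 2.76 to 3.64, while Fn1 was the brightest, at 7.30 to 8.09. Fn1 differed by -0.80 and weighs most in the sum. Summed levels of 6 primitive endoderm markers were 8.37 with the pair and 8.28 on the mouse array, those of 5 trophoblast markers 7.95 and 8.02, and those of 3 neural markers 6.50 and 6.48. In such bulk RNA, more cells of a type and more RNA per cell cannot be told apart.

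Few genes were far apart. Of 12042 genes that reached 4.84 on at least 1 of the 4 arrays, which is the median over the named probe sets, 22 were at least 2-fold apart (0.183%). Of these, 15 were higher with the pair (0.125% of all genes kept) and 7 lower (0.0581%). The middle of the distribution was narrow, with a median difference of 0.01, quartiles of -0.08 and 0.11 and an SD across genes of 0.19. At 1.5-fold the counts were 53 higher (0.44%) and 36 lower (0.299%). Dim genes carry a large share of the calls. On the mouse array 8 of the 15 higher genes lay below 4.84, so their differences were taken against values near background and their sizes are uncertain, and with the pair 3 of the 7 lower genes did. With a filter on the mean of the 4 arrays instead, 9 higher and 4 lower genes remained, all of them among the 22. Over single probe sets without any filter, 20 of 23521 were at least 2-fold higher (0.085%) and 7 lower (0.0298%). Probe sets paired with several genes were higher in 27 of 1814 cases (1.49%). Of 16010 probe sets with no gene 98 were higher (0.612%) and 72 lower (0.45%), together 170 (1.06%).

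**Figure D1:**
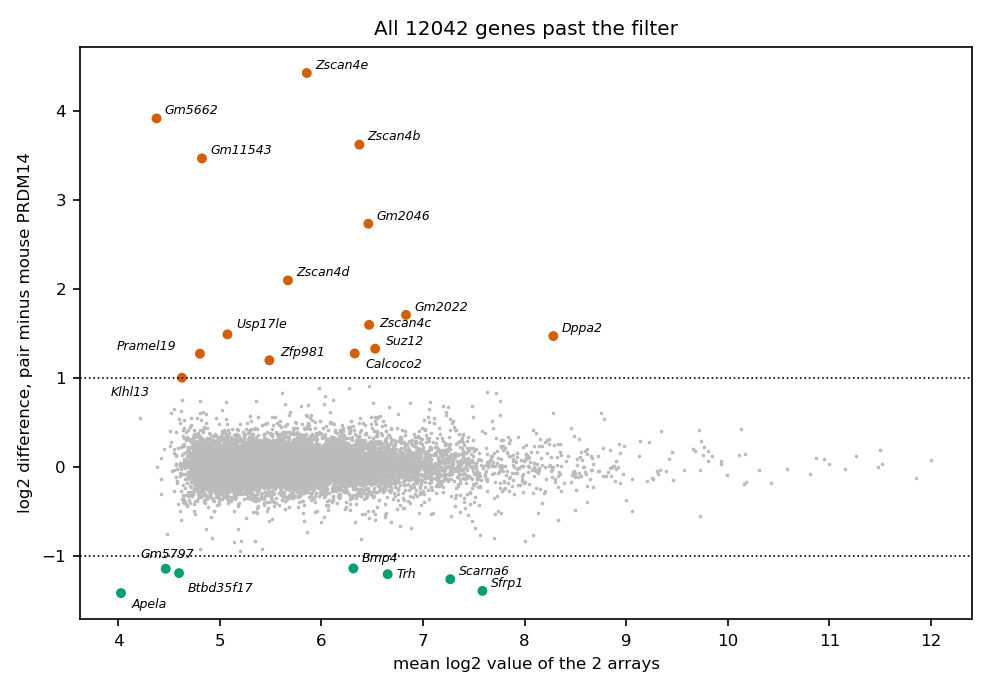
Each point is 1 of the 12042 genes past the filter, with the mean log2 value of the pair and mouse arrays on the horizontal axis and the log2 difference, pair minus mouse PRDM14, on the vertical axis. The dotted lines mark 2-fold, and the 15 higher (orange) and 7 lower (green) genes are named, with Zscan4e highest at 4.43 and Apela lowest at -1.42.

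For each called gene, the other 2 arrays were placed by whether they lay nearer to the pair or to the mouse array. Of the 15 higher genes, 13 had both the empty vector and the urchin alone value nearer to the mouse array, so the pair stood apart from the other 3 arrays. The other 2, Suz12 and Zfp981, had urchin alone near the pair and the empty vector near the mouse array. Of the 7 lower genes, 4 (Sfrp1, Trh, Apela and Btbd35f17) also had both other arrays nearer to the mouse array. In Btbd35f17 the margin was small, with 4.70 for the empty vector between 4.0 with the pair and 5.20 on the mouse array. For the remaining 3 (Bmp4, Scarna6 and Gm5797) the mouse array was the highest, and both other arrays were nearer to the pair. In Scarna6 the margin was small, with 7.22 for urchin alone between 6.64 with the pair and 7.90 on the mouse array. The comparisons share arrays, so this is a description of levels and no test.

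**Figure D2:**
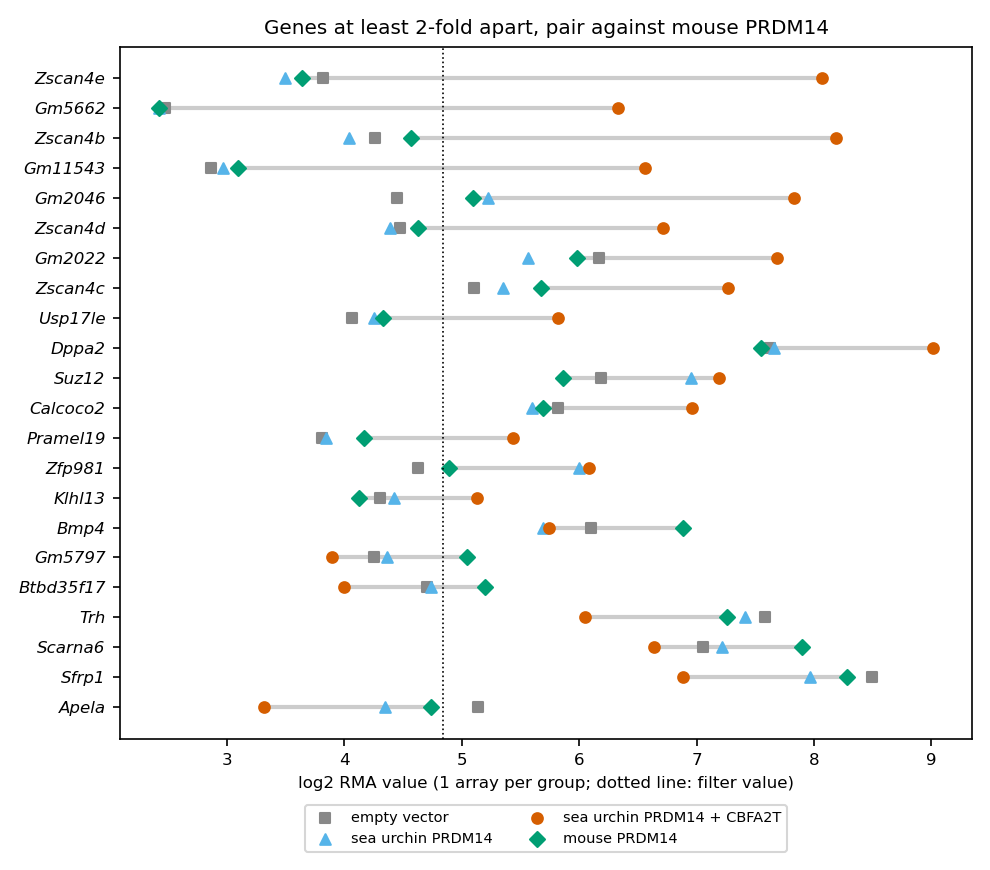
Log2 RMA values of the 22 genes at least 2-fold apart between the pair and the mouse array, 1 symbol per array, with a grey line from the mouse value to the pair value and a dotted line at the filter value of 4.84. For 13 genes of the upper 15 the orange circle of the pair lies far to the right of the other 3 symbols, while for Bmp4 the green diamond of the mouse array lies apart.

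The Zscan4 family gave 4 of the 15 higher genes. These are zinc finger and SCAN domain genes of the 2-cell embryo that lie as near-identical copies on chromosome 7. Zscan4e, annotated as a pseudogene, read 8.07 with the pair and 3.64 on the mouse array, with 3.82 for the empty vector and 3.49 for urchin alone, a difference in log2 values of 4.43. Zscan4b read 8.18 with the pair, 4.56 on the mouse array, 4.26 with the empty vector and 4.04 with urchin alone, a difference of 3.62. In both, the pair was bright and the other 3 arrays lay below the filter value, so the size of the difference is not a measured fold. Zscan4d read 6.72 with the pair against 4.62 on the mouse array, 4.47 with the empty vector and 4.39 with urchin alone (difference 2.09, again against values below the filter). Zscan4c read 7.27 against 5.67, 5.10 and 5.36 in the same order (difference 1.59, 3.02-fold). Zscan4a was high on all 4 arrays, at 7.52 with the pair and 6.93 to 7.11 on the others, and its difference of 0.41 stayed under 1.5-fold. It was chosen after its values were seen.

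The promoters are shown because 4 genes of 1 family lay in the same direction. RefSeq promoters of GRCm38.p6, from 250 bases before to 50 after the annotated start, were at hand for 3 of the called copies and are shown with the letters TATAAA, the core of a TATA box, in capitals. The stretches are chr7:10905001-10905300 (minus strand) for Zscan4b, chr7:11005495-11005794 (plus strand) for Zscan4c and chr7:11166099-11166398 (minus strand) for Zscan4d.
Zscan4b: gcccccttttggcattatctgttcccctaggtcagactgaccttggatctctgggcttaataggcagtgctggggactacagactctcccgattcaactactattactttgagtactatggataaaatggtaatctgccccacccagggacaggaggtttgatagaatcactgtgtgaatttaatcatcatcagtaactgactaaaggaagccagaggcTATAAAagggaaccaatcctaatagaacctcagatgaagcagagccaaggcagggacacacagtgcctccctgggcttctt
Zscan4c: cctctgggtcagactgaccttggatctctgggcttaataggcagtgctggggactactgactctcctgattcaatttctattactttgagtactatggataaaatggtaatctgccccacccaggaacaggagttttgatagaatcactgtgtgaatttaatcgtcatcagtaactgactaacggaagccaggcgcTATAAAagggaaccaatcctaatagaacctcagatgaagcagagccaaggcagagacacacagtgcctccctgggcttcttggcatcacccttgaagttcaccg
Zscan4d: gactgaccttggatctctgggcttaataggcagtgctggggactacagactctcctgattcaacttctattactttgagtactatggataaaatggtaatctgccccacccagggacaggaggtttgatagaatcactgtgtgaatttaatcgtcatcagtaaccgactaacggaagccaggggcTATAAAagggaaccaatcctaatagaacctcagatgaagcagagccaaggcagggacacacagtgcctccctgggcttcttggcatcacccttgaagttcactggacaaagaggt
Aligned locally, Zscan4b and Zscan4d shared 260 of 266 bases (97.7%), Zscan4c and Zscan4d 280 of 287 (97.6%) and Zscan4b and Zscan4c 264 of 277 (95.3%), with 0 gaps. Each holds TATAAA once on its own strand, 31 bases before the annotated start in Zscan4b, 54 in Zscan4c and 65 in Zscan4d. Over all promoters of the table, 4473 of 32851 (13.6%) hold these letters on either strand. No probe or transcript sequences were compared. The platform annotation pairs 2 further probe sets with several Zscan4 genes at once, and the order of the 4 differences above is uncertain.

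A second cluster, on chromosome 12, held predicted genes that were high with the pair. Gm5662 read 6.34 with the pair and 2.42 on the mouse array, with 2.47 and 2.42 for the empty vector and urchin alone. The difference of 3.92 was taken against values close to the floor of the arrays, and was 2.21 with the mean of both probe sets of the gene. A dimmer probe set of Gm5662 differed by 0.50, from 3.03 on the mouse array to 3.52 with the pair. Gm2046 read 7.83 with the pair against 5.10 on the mouse array, 4.45 with the empty vector and 5.23 with urchin alone (difference 2.73). Its neighbour Gm2022 read 7.69 against 5.98, 6.17 and 5.56 (difference 1.71). Together with Gm2016 (difference 0.73) these 4 genes lay within 5 array genes of one another. On chromosome 11 Gm11543 read 6.56 with the pair and between 2.87 and 3.09 on the other 3 arrays (difference 3.47, also against values below the filter). Its neighbours Gm11546 and Tmem92, a transmembrane protein gene known from 2-cell-like cells, differed by 0.62 and 0.75. Gm2016 and Gm11546 were picked with their values in view.

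Single genes known from cleavage-stage embryos lay in the same direction. Usp17le, a deubiquitinase gene, read 5.82 with the pair and 4.07 to 4.33 on the other 3 arrays (difference from the mouse array 1.49). Pramel19, of the PRAME-like family, read 5.44 with the pair, 4.17 on the mouse array, 3.81 with the empty vector and 3.84 with urchin alone (1.27). Calcoco2, an autophagy receptor gene, read 6.96 with the pair, 5.69 on the mouse array, 5.82 with the empty vector and 5.60 with urchin alone (1.27). In all of these the pair was highest and the other 3 arrays lay close together. Dppa2 is the brightest called gene and encodes a chromatin protein that acts with Dppa4 upstream of 2-cell genes. It read 9.02 with the pair, 7.55 on the mouse array, 7.62 with the empty vector and 7.66 with urchin alone (1.47, 2.77-fold). Dppa4 read 6.28 with the pair and 5.86 on the mouse array (0.41), but urchin alone was as high as the pair, at 6.27. Klhl13, an adaptor of a ubiquitin ligase, sat at the threshold, with 5.13 against 4.13 and a difference of 1.0, and dropped under 2-fold when the median difference of all genes was set to 0.

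Of the 33 measured members of the list of 2-cell stage genes, 20 passed the filter. Of these 20, 12 were at least 1.5-fold higher with the pair and 0 were 1.5-fold lower. Of all 12042 genes, 53 (0.44%) were higher and 36 (0.299%) lower at that size. Only the pair brought 8 of the 20 past the filter, which by itself makes them differ. Over all 33 members with no filter the median difference was 0.36 and 28 were above 0. All genes past the filter had a median of 0.01 and 52.9% above 0. These sets are unlike, since the genes were filtered and the 33 members were not. The list was drawn up with earlier results of these arrays known, so its direction is no independent evidence. Members past the filter that hardly differed were Eif1a (0.06), Usp17ld (0.09), Usp17la (0.13) and Pramel6 (-0.10). Among the dim members below the filter, Duxf3 (0.02), Spz1 (0.03), Usp26 (0.04) and Zfp352 (-0.08) hardly differed and Tdpoz1 (-0.19) was lower. Tcstv3 (1.07) and Tcstv1 (0.56), also below it, were higher with the pair. All of these were named with their values in view. Which copies of these families the probe sets read is not known, so the differences cannot be assigned to single copies.

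Suz12 and Zfp981 separated both sea urchin arrays from the mouse array. Suz12 encodes a core subunit of Polycomb repressive complex 2, which places the repressive methyl mark on histone H3. It read 7.19 with the pair and 6.96 with urchin alone, against 5.87 on the mouse array and 6.19 with the empty vector, a difference between pair and mouse of 1.33 or 2.51-fold. Among the 12 complex members past the filter the median difference was -0.00 and Suz12 alone passed 1.5-fold. Epop (0.55) and Mtf2 (0.39), accessory subunits, were next, while the catalytic subunit Ezh2 read 6.94 on both arrays and Eed differed by -0.24. These 4 were picked with their values in view. Zfp981, a zinc finger gene of the Rex2 cluster on chromosome 4, read 6.09 with the pair and 6.0 with urchin alone, against 4.89 on the mouse array and 4.62 with the empty vector (difference 1.20).

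Within the Rex2 cluster the genes did not share 1 pattern. Rex2 itself read 7.0 with the pair, 6.70 with urchin alone, 6.33 on the mouse array and 5.07 with the empty vector, so the mouse array lay between the empty vector and the pair (difference 0.67, past 1.5-fold). Zfp992 read 6.56 with the pair and 6.46 on the mouse array, both above the empty vector at 5.38, and did not separate them (0.09). Zfp980 read 5.08 with the pair and 5.15 on the mouse array (-0.07). Of the 6 members past the filter 5 were above 0, against 52.9% of all genes, with a median of 0.29. Repeats among these zinc finger genes mean that a probe set may read more than 1 of them.

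Suz12 lies on chromosome 11, and genes of that chromosome were slightly higher with the pair as a whole. The median difference of its 1067 genes past the filter was 0.07 and 68.0% were above 0, against 52.9% of all genes. The chromosome's median for urchin alone minus mouse was 0.06. Of the 53 genes at least 1.5-fold higher with the pair (0.44% of all genes), 21 lie on chromosome 11, which is 39.6% of them, while the chromosome holds 8.86% of all genes past the filter. None of the 36 genes at least 1.5-fold lower with the pair is among the genes of chromosome 11. In 14 of the 21, among them Suz12, its neighbour Utp6, Skp1, Npm1, Canx, Cct4 and Rpl23a, urchin alone lay nearer to the pair and the empty vector nearer to the mouse array. Npm1, which encodes the nucleolar protein nucleophosmin, read 9.06 with the pair, 8.98 with urchin alone, 8.46 on the mouse array and 8.36 with the empty vector. Skp1, a subunit of a ubiquitin ligase, read 7.05 and 7.13 on the 2 sea urchin arrays against 6.46 and 6.61 on the mouse and empty vector arrays. Apart from Suz12 these genes were picked with their values in view, and so was the chromosome. Their part in the Suz12 difference was not tested.

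Chromosome 16, which holds Dppa2 and Dppa4, had a median of 0.08 over 359 genes, with 67.7% above 0. For urchin alone minus mouse its median was 0.01. Every other autosome and the X chromosome had a median for the pair between -0.01 and 0.02. After the median of each chromosome was set to 0, Klhl13 was the 1 gene of the 22 that slipped under 2-fold. Without chromosomes 11 and 16 the count of higher genes was 11, since Suz12, Calcoco2, Gm11543 and Dppa2 lie there.

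**Figure D3:**
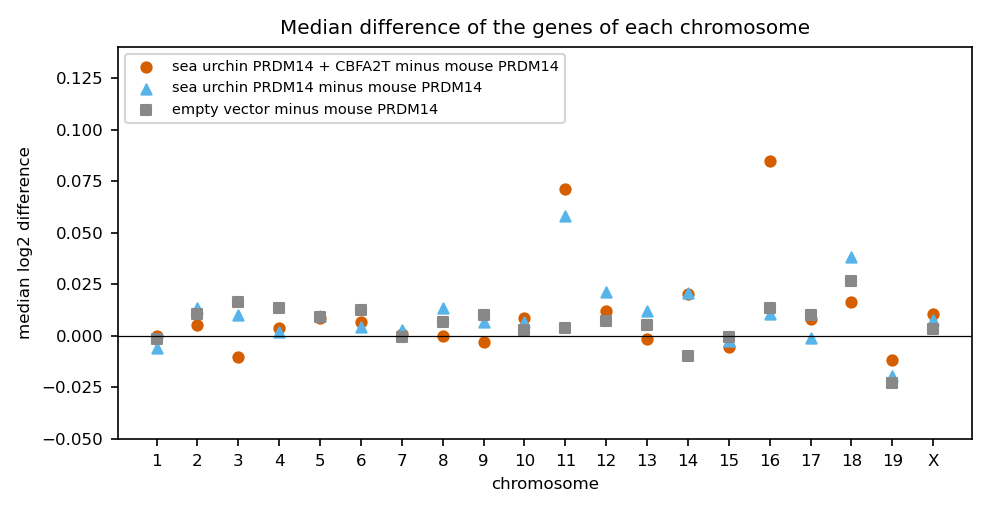
Median log2 difference from the mouse PRDM14 array over the genes past the filter of each chromosome, for the pair (circles), urchin alone (triangles) and the empty vector (squares). Chromosome 11 stands at 0.07 for the pair and 0.06 for urchin alone, and chromosome 16 at 0.08 for the pair and 0.01 for urchin alone.

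The 4 lower genes with both other arrays nearer to the mouse array encode 2 secreted signals, a secreted Wnt antagonist and a BTB domain protein. Sfrp1, the Wnt antagonist, was bright on the other 3 arrays, at 8.28 on the mouse array, 8.49 with the empty vector and 7.97 with urchin alone, and read 6.89 with the pair (difference -1.40). Trh, the gene of thyrotropin-releasing hormone, read 6.05 with the pair against 7.26 on the mouse array, 7.58 with the empty vector and 7.41 with urchin alone (-1.21). Apela, a peptide ligand of the apelin receptor, read 3.32 with the pair, 4.34 with urchin alone, 4.74 on the mouse array and 5.14 with the empty vector (-1.42). The empty vector is thus the highest of the 4 arrays for all 3, and the mouse array lies closer to it than the pair does. Apela passed the filter through the empty vector array alone, and its difference rests on values near background. Btbd35f17, of a multicopy family on the X chromosome, was dim throughout, at 4.0 with the pair, 5.20 on the mouse array, 4.70 with the empty vector and 4.74 with urchin alone (-1.20).

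For Bmp4 the mouse array stood apart. Bmp4 is a secreted growth factor that supports naive stem cells and later patterns mesoderm. It read 6.89 on the mouse array, 5.74 with the pair, 5.69 with urchin alone and 6.10 with the empty vector, a difference of -1.14 between pair and mouse. The pair and urchin alone lay close together, and the mouse array was the highest of the 4. Of the 12 members of the BMP list past the filter Bmp4 alone passed 1.5-fold, and the targets Id3 (-0.07) and Id4 (-0.12) and the receptor Bmpr1a (-0.07) were close between the arrays. These 3 were named with their values in view. The list median was -0.05, or -0.17 with a stricter filter at 5.65.

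Small nuclear, nucleolar and Cajal body RNAs mostly read higher on the mouse array than with the pair, while the 142 miRNA genes past the filter did not lie to 1 side (median 0.00, 72 above 0). Scarna6, a Cajal body RNA, read 7.90 on the mouse array, 6.64 with the pair, 7.22 with urchin alone and 7.05 with the empty vector (-1.27). Of all 12042 genes past the filter 52.9% were higher with the pair. Of 69 small nuclear, nucleolar and Cajal body RNA genes past the filter, 16 were higher with the pair and the median difference was -0.17. The median against the mouse array was -0.12 for urchin alone and -0.25 for the empty vector, so both also lay below the mouse array by the median of gene differences. By the median level of the class, however, urchin alone was highest at 7.04, against 6.82 on the mouse array, 6.82 with the empty vector and 6.66 with the pair. Snord72 (-0.93), Snora23 (-0.81) and Snora69 (-0.81) were among 7 of these 69 at least 1.5-fold lower with the pair, where 36 of all 12042 genes (0.299%) were, and the Y RNA gene Rny1 differed by -0.60. In the opposite direction AF357355, a small nucleolar RNA of the imprinted Dlk1-Dio3 region, read 5.72 with the pair and 4.98 on the mouse array (0.74). The snoRNA genes named here other than by the list rule were picked with their values in view. Gm5797, a predicted gene, read 5.04 on the mouse array, 3.89 with the pair, 4.26 with the empty vector and 4.36 with urchin alone (-1.15).

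A few genes separated urchin alone from the mouse array but were closer with the pair. Against the mouse array 6 genes were at least 2-fold higher with urchin alone (0.0498%) and 1 lower (0.0083%), and both comparisons use the mouse array. These genes were picked for a large difference between urchin alone and the mouse array. A smaller difference with the pair is therefore partly expected from the picking. Gja1, a gap junction gene of the connexin family, read 6.40 with urchin alone and 6.39 with the empty vector, but 5.46 with the pair and 5.38 on the mouse array. Its difference from the mouse array was 1.02 for urchin alone and 0.08 for the pair. AF357355 differed from the mouse array by 2.57 with urchin alone (7.55 against 4.98) and by 0.74 with the pair, and the empty vector read 6.95. AF357425, a second small nucleolar RNA of chromosome 12, differed by 1.17 with urchin alone and by 0.33 with the pair. The receptor gene Olfr1039 differed by 1.16 and 0.55, on values of 3.94 to 5.10 near background. In each of these 4 genes the pair lay nearer to the mouse array than urchin alone did, and whether CBFA2T brought this about was not tested. For Suz12 (1.09 and 1.33), Zfp981 (1.11 and 1.20) and Bmp4 (-1.20 and -1.14) the distance from the mouse array was about as large with the pair as without CBFA2T.

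**Figure D4:**
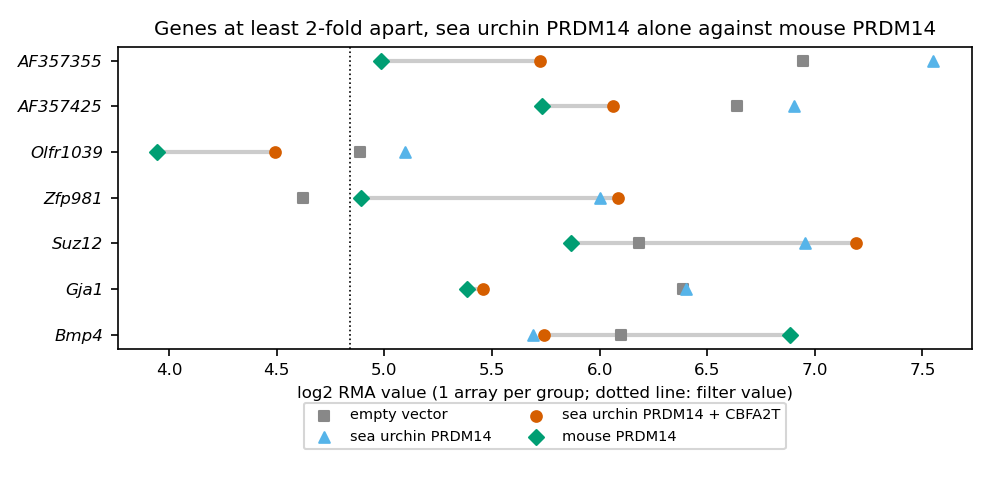
Log2 RMA values on the 4 arrays of the 7 genes at least 2-fold apart between urchin alone and the mouse array, with a grey line from the mouse value to the pair value and a dotted line at 4.84. The grey line is short for Gja1 (0.08) and long for Suz12 (1.33), Zfp981 (1.20) and Bmp4 (-1.14).

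Naive pluripotency genes, which PRDM14 is known to support, were not all on 1 side. Of 25 list members past the filter 12 were higher and 13 lower with the pair, with a median of -0.04. Past 1.5-fold were Dppa2 and Fbxo15, an F-box gene of stem cells that read 6.0 with the pair, 5.29 on the mouse array and with the empty vector and 4.93 with urchin alone (0.71). Several transcription factors of the naive network were a little lower with the pair. Klf4 read 5.88 with the pair, 6.26 on the mouse array, 5.98 with the empty vector and 5.74 with urchin alone (-0.38). Tfcp2l1 read 7.21, 7.60, 7.35 and 6.93 in that order (-0.40), and Tbx3 6.47, 6.82, 6.64 and 6.51 (-0.34). In all 3 the mouse array was the highest of the 4. Klf2 (0.32), Nanog (0.29) and Nr5a2 (0.21) were a little higher with the pair, and Esrrb (-0.23) lower. Klf4, Tfcp2l1, Tbx3, Klf2, Nanog and Nr5a2 were picked with their values in view. Of the 13 core pluripotency genes, Lin28a, an RNA-binding protein gene, had the largest difference (-0.53), while Pou5f1 (-0.10), Sox2 (0.02) and Sall4 (0.04) were close.

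Genes that PRDM14 is known to repress stayed under 1.5-fold apart on the 2 arrays, as did nearly all genes. Of 8 de novo methylation and FGF receptor genes 7 passed the filter and 0 were 1.5-fold apart. That is near the share over all 12042 genes, of which 89 (0.739%) were that far apart. Fgfr1, a receptor of the FGF pathway that pushes cells out of naive pluripotency, read 6.65 with the pair, 6.11 on the mouse array, 6.39 with the empty vector and 6.49 with urchin alone (0.54). Dnmt3b, a de novo DNA methyltransferase gene, read 6.34 with the pair, 5.96 on the mouse array, 6.42 with the empty vector and 6.56 with urchin alone (0.38). For both, the mouse array was the lowest of the 4. Dnmt3a (0.11) and Grb10 (0.28) were slightly higher with the pair and Dnmt3l (-0.23) lower, and the median of the 7 was 0.11, against 0.24 with the stricter filter and 0.05 with none. Dnmt3b, Dnmt3a, Grb10 and Dnmt3l were picked with their values in view. Of 22 FGF and ERK response genes 9 were above 0, against 52.9% of all genes, and 0 passed 1.5-fold, again near the share of 0.739%. Cbfa2t2, the mouse co-repressor, read 5.10 with the pair, 5.62 on the mouse array, 5.42 with the empty vector and 5.53 with urchin alone (-0.52), and Cbfa2t3 (0.08) and Runx1t1 (-0.05) hardly differed.

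Lists of metabolic genes lay slightly lower with the pair by the median of gene differences, without single genes far apart. Of all 12042 genes past the filter 52.9% were above 0, with a median of 0.01. In cholesterol synthesis 16 of 18 members were below 0 with a median of -0.19. Nsdhl, an enzyme of late sterol synthesis, read 5.68 with the pair and 6.31 on the mouse array (-0.63), with 6.34 for the empty vector and 6.09 for urchin alone. Insig1 (-0.56), a sensor of sterol level, and Hmgcs1 (-0.52), an early enzyme, followed, while Fdft1 read 7.20 and 7.21. In the list of amino acid and unfolded protein stress genes, 19 of 24 members were below 0, with a median of -0.16. Cth, an enzyme of cysteine synthesis, was the 1 member at least 1.5-fold lower (-0.62). It read 5.18 with the pair, 5.79 on the mouse array, 6.19 with the empty vector and 5.57 with urchin alone. The amino acid carrier gene Slc7a5 (-0.53) and the asparagine synthetase gene Asns (-0.52) stayed under 1.5-fold. The serine synthesis gene Phgdh (0.49) and the unfolded protein gene Xbp1 (0.44) were higher with the pair. In glycolysis and hypoxia 17 of 23 were below 0 with a median of -0.13, and Pgk1 had the largest difference (-0.50). The housekeeping list, which shares Pgk1 with it, had a median of -0.02, with 12 of 20 below 0. Apart from Nsdhl, Cth and Pgk1 these genes were picked with their values in view.

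Among developmental lists single genes stood out and medians stayed near 0. Tdgf1, the Nodal co-receptor gene, read 7.58 with the pair, 8.42 on the mouse array, 8.25 with the empty vector and 8.74 with urchin alone (-0.84), and is on the Nodal list (median -0.00) and the primed epiblast list (median -0.02). Lefty2, a Nodal target, differed the other way (0.38). In the Wnt list, 22 of the 23 members stayed under 1.5-fold and Sfrp1 did not, with a median of 0.01. Plagl1, an imprinted zinc finger gene, read 5.22 with the pair, 5.18 with urchin alone, 5.81 on the mouse array and 6.04 with the empty vector (-0.59). H2ac1, a histone H2A gene, read 6.72 with the pair and 5.79 to 5.91 on the other arrays (0.89). Ccng1, a p53 target on chromosome 11, read 7.54 with the pair and 6.86 on the mouse array (0.68). Fn1, the fibronectin gene, which is on the fibroblast list, read 7.30 with the pair, 8.09 on the mouse array, 7.79 with the empty vector and 7.86 with urchin alone (-0.80). Of the 26 fibroblast list members past the filter 14 were below 0, with a median of -0.02, and Fn1 alone passed 1.5-fold. Whether Fn1 came from feeder or stem cells was not tested. Lefty2 was chosen after its values were seen.

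The other lists had 0 members 1.5-fold apart, near the share over all 12042 genes, of which 0.739% were that far apart. Their medians were -0.07 for trophoblast (largest difference in Esrrb), 0.02 for primitive endoderm (Sparc, -0.47), 0.09 for germ cell genes (Dppa3, 0.39) and 0.04 for DNA methylation and demethylation genes (Usp7, 0.51). They were -0.01 for interferon response (Ifit1, 0.42) and 0.01 for neural and mesodermal genes (Olig2, 0.40). The 10 genes of the mitochondrial genome had a median of 0.11 with 9 above 0, led by ND3 (0.22). Of all genes past the filter 52.9% were above 0.

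**Figure D5:**
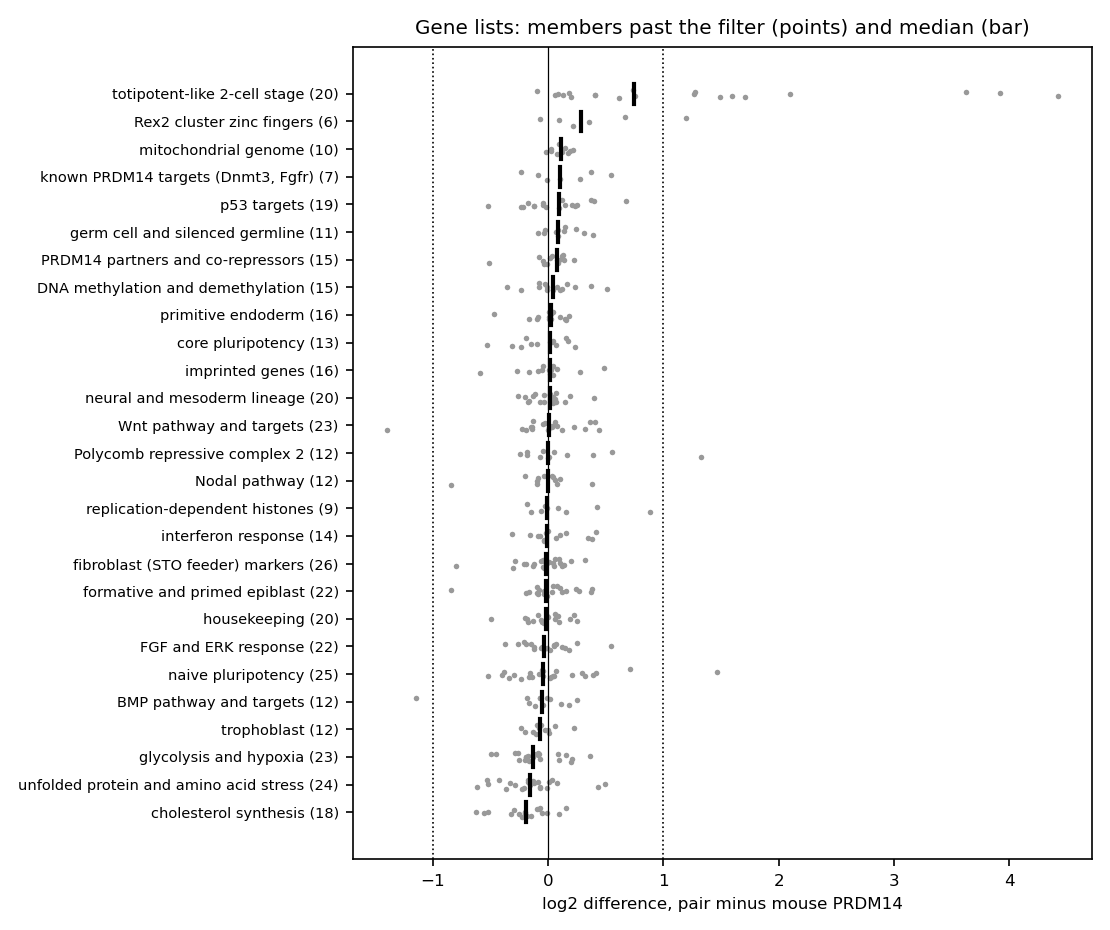
Log2 differences, pair minus mouse PRDM14, of the members past the filter of 27 gene lists (points) with the list median (bar) and the number of members in parentheses, and dotted lines at 2-fold. The list of 2-cell stage genes has a median of 0.74, with 8 members that passed the filter through the pair alone, and cholesterol synthesis the lowest, at -0.19.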

How the data were processed

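The authors deposited log2 values that RMA gave, per the submitters' processing notes. This method corrects background, equalises the distributions of the arrays and summarises the probes of a probe set, so a shift shared by most genes would not show. The sources used here give no version, genome build or set of arrays normalized with these. Of 41345 probe sets 1814 had several gene symbols and 16010 none. A gene's value came from its brightest probe set by the mean of 4 arrays (22180 genes, 1082 with several), and genes were kept when 1 array reached 4.84. RefSeq of GRCm38.p6 gave chromosomes for 11964 of the 12042 genes kept. Differences are single array minus single array, called at 2-fold, and the script was tested on simulated data.

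Named were Prdm14 and the Cbfa2t genes, up to 15 genes past 2-fold per direction, up to 5 per direction with predicted gene, small RNA or receptor symbols, and per list up to 4 members past 1.5-fold or else the largest. The members and 27 lists were chosen with earlier results of these data known. Alternatives were a 1.5-fold threshold, 4 other filters, cyclic loess, centring on the median, the mean of probe sets, and leaving out predicted gene, small RNA and receptor symbols or chromosomes 11 and 16. Setting the median of each chromosome to 0 was added after seeing the data. Python 3.11.15, numpy 2.4.6, pandas 2.3.3, matplotlib 3.10.9, biopython 1.88, R 4.3.3 and limma 3.58.1 were used.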

Additional observations from a re-analysis of the deposited data

Results flagged for a closer look

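Probe sets outside the comparison of named genes also separated the arrays. Of the 1814 probe sets paired with several genes, 27 were at least 2-fold higher with the pair (1.49%) and 0 lower. They fell into multicopy families: 13 read Pramel genes, 10 read Gm4301 to Gm4340, 2 read Zscan4 genes, and 1 each read Gm4027 with Gm2022 and Gm6346 with Gm6348. Some repeat the same values, so the 27 hold 21 distinct sets of values. The 2 Zscan4 probe sets read 6.68 and 7.84 with the pair and 3.43 and 3.95 on the mouse array, and those of Gm4301 to Gm4340 read up to 8.93 with the pair and at most 5.95 on the mouse array.

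Of the 16010 probe sets without a gene in the annotation, 98 were at least 2-fold higher with the pair (0.612%) and 72 lower (0.45%). What they read was not looked up, and with 1 array per group the difference between the shares was not tested.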

How the results depend on the processing

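Cyclic loess left the counts at 15 higher and 7 lower genes, and so did setting the median difference to 0 except for Klhl13. At 1.5-fold, 53 genes were higher and 36 lower, both other arrays lay nearer to the mouse array in 25 higher and 11 lower genes and nearer to the pair in 4 higher and 14 lower genes, and 74 probe sets with 1 symbol were higher and 52 lower. With the stricter filter 4 genes were lower, 2 of them with both other arrays nearer to the mouse array. With the filter on the mean level 9 genes were higher (7 with both other arrays nearer to the mouse array) and 4 lower (2 of them so). These filters drop dim genes by construction. No named gene past 2-fold changed sign, but the filters and the 1.5-fold threshold leave a gene's difference unchanged. The centrings shift it too little to reverse it, so this outcome was largely fixed in advance. Of the list medians recomputed, 251 stayed within 0.05 and 19 moved further, among them that of the 2-cell stage list, from 0.74 to 0.36 with no filter and 1.49 with the stricter one. No paired analysis was possible because each group has 1 array. The number of arrays limits every value, and dim genes, near background, are the least certain.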
